A study of Homo sapiens with 6 samples.

Results

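Focal windows are stretches of 10 kb on one strand of the hg19 genome in which a single 50 nt bin holds most of the crosslink events recovered with an antibody against QKI-5. The rule took windows of chromosomes 1 to 22 with at least 200 events pooled over the 3 QKI-5 libraries, at least 1 event in any control library, and at least 50% of the pooled QKI-5 events in 1 bin. Of 174732 strand-specific windows with any event, 14314 met both event minima and 94 of these were focal. The other 14220 serve as the comparison. The share of QKI-5 events in the dominant bin chose the members and is given only as a description. The place of control events inside a window was not used by the rule.

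The libraries are iCLIP libraries from BEAS2B, a line of bronchial epithelium from human. A self-made antibody against QKI-5 is labelled for 3 of them and none for the 3 controls, although the protocol text shared by all 6 names the antibody. All cells were irradiated with UV, and both groups carry replicate numbers 1 to 3. Nothing in the labels gives separate cultures for the replicates, so each p-value covers just how far these libraries vary, possibly for technical reasons.

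QKI-5 is the nuclear isoform of Quaking, an RNA-binding protein of the STAR family that recognises a short element in pre-mRNA and regulates splicing. In iCLIP, reverse transcription tends to stop at the amino acid left on the RNA where the protein was crosslinked, so the end of a cDNA marks the contact to the nucleotide. A library made without antibody records RNA that reaches the sequencer by other routes, such as abundant RNAs that stick to the beads.

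The QKI-5 libraries held 2143279 to 7283982 events and the controls 29810 to 137926. Levels are given as EPM, events per 1000000 events of the library. A floor of 3 events is 0.412 to 1.40 EPM with the antibody and 21.8 to 101 EPM without, so low control levels are coarse. Intervals cover counting error only, because PCR copies of one cDNA may be among the events. No hg19 annotation or genome was used here, so windows carry no gene names and no sequences.

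The 94 windows lay on 21 chromosomes, 48 on the plus and 46 on the minus strand. They held 201 to 103694 pooled QKI-5 events, with a median of 514 against 310 in the comparison windows. The dominant bin held 50.0 to 100% of them, with a median of 58.7%, against a median of 9.15% for the fullest bin of comparison windows. Most members sat near the threshold, since 50 of the 94 had under 60% in the bin, 14 had at least 90% and 4 had all QKI-5 events there. Just inside the threshold were the minus-strand window 122240001 to 122250000 of chromosome 12 (50.0%) and the plus-strand window 52300001 to 52310000 of chromosome 13 (50.2%). Just outside were 2 minus-strand windows of chromosome 14, 23560001 to 23570000 (49.7%) and 35420001 to 35430000 (49.5%). A further 12 windows passed on QKI-5 events but held no control event and are not members.

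Within the dominant bin, events spread over 2 to 50 nucleotide positions, with a median of 30. The single highest position held 8.11 to 99.8% of the bin's events, with a median of 19.5%. The shortest stretch that held 80% of the bin's events was 15 nt in the median, ranged from 1 to 40 nt, and was 10 nt or less in 31 windows. The bin held a median of 12.7 events per position and the rest of the window 1.65, a contrast that the rule itself favours. When each position was counted once, the bin held at least 50% of the window's positions in 15 of the 94. In 28 windows a neighbouring bin held at least another 10% of the events. Whether the fixed bin edge cut through a peak there was not tested.

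The pooled share hid differences between QKI-5 libraries. The share reached 50% in all 3 libraries in 44 windows, in 2 in 32 and in 1 in 18; a pooled share of 50% requires at least 1. The median share was 60.6, 58.9 and 58.0% in replicates 1, 2 and 3, and the lowest was 17.9, 10.0 and 18.2%. The bin itself was steadier than its share, since it was the fullest bin in all 3 libraries for 88 windows. The top position was the same nucleotide in all 3 libraries in 27 windows, and lay within 5 nt of the pooled top position in all 3 in 57.

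Bins chosen without a library still held most of that library's events. The rule run on 2 QKI-5 libraries gave 50, 82 and 92 windows when replicate 1, 2 or 3 was held out. The held-out library had a median of 66.3, 56.1 and 56.1% of its events in the bin chosen by the other libraries. It reached 50% in 35 of 50, 50 of 82 and 53 of 92 windows. Control events were nearly as concentrated in those bins, in the windows that had any. An event in the same-numbered control was present in 45 of 50, 50 of 82 and 54 of 92 windows. Averaged over these windows, the held-out QKI-5 share was 66.0 ± 1.43% and the control share 60.3 ± 3.77% (SD, n = 3). Each held-out library and its control were measured on their own set of windows, at 66.1 and 60.6%, 67.3 and 56.4%, and 64.5 and 63.9% for numbers 1, 2 and 3, and no test is given. With events summed over windows the order turned in all 3 sets, at 67.9 ± 3.23% against 74.98 ± 3.62%, so the direction depends on whether windows or events are weighted equally.

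Control events gathered in the same bins in most windows where they were numerous. In the 38 focal windows with at least 10 control events, a median of 77.2% of control events fell in the bin chosen on QKI-5 events, and in 32 of the 38 it was at least 50%. The same bin was the fullest bin of the control in 35 of the 38. In the 1734 comparison windows with at least 10 control events the median was 0%, and 17 reached 50%. Summed over all focal windows, 72.2, 75.9 and 77.1% of control events lay in the dominant bins in control replicates 1, 2 and 3. Without the 4 windows with most QKI-5 events the mean over the controls was 82.8%, against 75.1 ± 2.53% (SD, n = 3) with them. These values and that of comparison windows are descriptions, with no test between them. By the rule the fullest bin of a comparison window holds under 50% of its QKI-5 events, with a median of 9.15%. A control that followed QKI-5 would thus also be low there.

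**Figure D1:**
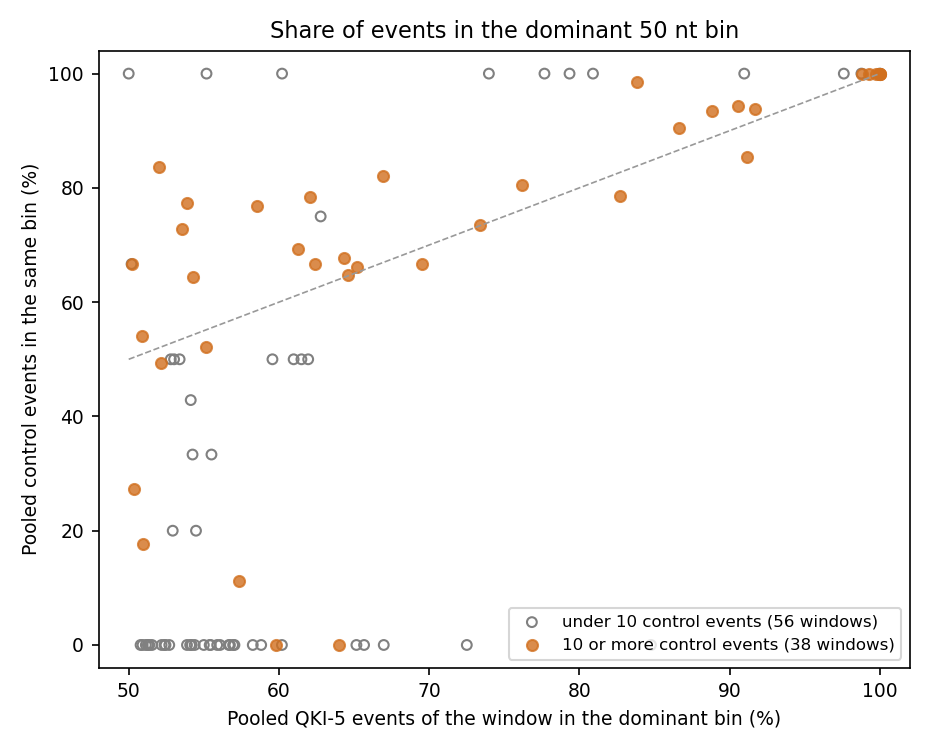
Each of the 94 focal windows by the percentage of its pooled QKI-5 events (x axis) and of its pooled control events (y axis) in the dominant 50 nt bin; filled points have 10 or more control events and the dashed line marks equal shares. Of the 38 filled points, 32 lie at 50% or above on the control axis and 2 lie at 0%, while open points rest on 1 to 9 control events each.

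Agreement went down to the nucleotide. In the 31 windows with at least 10 control events inside the bin, the control's top position was the QKI-5 top position in 19 and lay within 2 nt of it in 26. It was 3 to 10 nt away in 2 windows and more than 10 nt away in 3. In the 56 windows with fewer than 10 control events the picture was thinner: 64 of 163 control events lay in the dominant bin (39.3%), against 3.11% of 51629 events in comparison windows of the same kind, and 31 of the 56 had none there. As above, the rule favours a lower share in comparison windows.

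The focal windows took a larger part of the control libraries than of the QKI-5 libraries. They held 2.32, 5.23 and 3.15% of all events in QKI-5 replicates 1, 2 and 3, and 8.68, 11.0 and 8.15% in control replicates 1, 2 and 3. Every control exceeded every QKI-5 library. The means were 3.57 ± 1.502% and 9.28 ± 1.53% (SD, n = 3), a ratio of 0.384 (two-sided exact permutation p = 0.1, the smallest possible). The rule set a minimum on QKI-5 events, so the share of QKI-5 libraries is not independent of it. The 4 fullest windows carried 72.0% of the members' QKI-5 events, and without them the means were 0.943 ± 0.290% and 2.44 ± 0.592%, a ratio of 0.386. These sums weigh the fullest windows most and do not describe the typical member. The median over the 94 windows of the mean EPM was 45.7 with the antibody and 30.9 in the controls. Of the 94, 41 held 3 or fewer control events, so that control median is coarse. Shares are fractions of a library, so they do not say how much RNA was recovered from each window.

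The 10 focal windows with the highest QKI-5 levels all had a higher mean EPM in the controls. The fullest was chr12:20700001-20710000 (plus strand), whose dominant bin spans 20704351 to 20704400. It held 7256, 14928 and 6524 EPM in antibody libraries 1, 2 and 3 and 15291, 35202 and 14425 EPM in controls 1, 2 and 3. Only QKI-5 replicate 2 reached the level of a control, and it stood above control replicate 3. The bin took 73.4% of QKI-5 and 73.5% of control events (95% exact interval 72.1 to 74.8), and both groups had their top position at 20704380. A single nucleotide held 41.3% of the QKI-5 events of this bin.

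The window chr2:133010001-133020000 (minus strand) held 3203, 11311 and 10786 EPM in antibody libraries 1, 2 and 3 and 23136, 20615 and 37437 EPM in controls 1, 2 and 3. No QKI-5 library reached the lowest control. Its bin from 133012601 to 133012650 took 46.3, 65.2 and 71.3% of the window's events in QKI-5 replicates 1, 2 and 3, and 78.4% of pooled control events. The window chr5:71140001-71150000 (plus strand) held 3589, 9136 and 4337 EPM with the antibody and 15748, 17914 and 9862 EPM without it, again with no overlap. Here the bin took 52.1% of QKI-5 and 49.4% of control events.

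The window chr9:79180001-79190000 (plus strand) held 2550 ± 1468 EPM with the antibody and 5199 ± 3729 EPM without it (SD, n = 3), and the groups overlapped. The window chr10:103120001-103130000 (minus strand) held 803, 1183 and 1230 EPM in antibody libraries 1, 2 and 3 and 11281, 2001 and 5602 EPM in controls 1, 2 and 3. Its bin took 91.2% of QKI-5 and 85.3% of control events, and 80% of the QKI-5 events in it fell within 4 nt. This window did not overlap between groups, and control replicate 1 was its highest library. The window chr22:43010001-43020000 (plus strand) held 1160 ± 604 EPM against 3615 ± 1892 EPM, and chr11:62600001-62610000 (minus strand) held 823 ± 259 EPM against 3877 ± 2097 EPM, both without overlap.

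The other 3 of the 10 lay on chromosomes 19 and 6. The window chr19:36060001-36070000 (plus strand) held 556, 2331 and 502 EPM in antibody libraries 1, 2 and 3 and 580, 4895 and 872 EPM in controls 1, 2 and 3. Replicate 2 was the highest library of each group there. On the minus strand of the same chromosome, 24180001 to 24190000 held 239 ± 36.5 EPM against 508 ± 149 EPM, without overlap. The window chr6:89770001-89780000 (minus strand) held 251 ± 76.3 EPM against 1001 ± 844 EPM, and its bin from 89773301 to 89773350 took 2810 of 2811 QKI-5 events and all 205 control events. None of the 10 passed the window test described below, at adjusted p from 0.124 to 0.960 (edgeR).

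**Figure D2:**
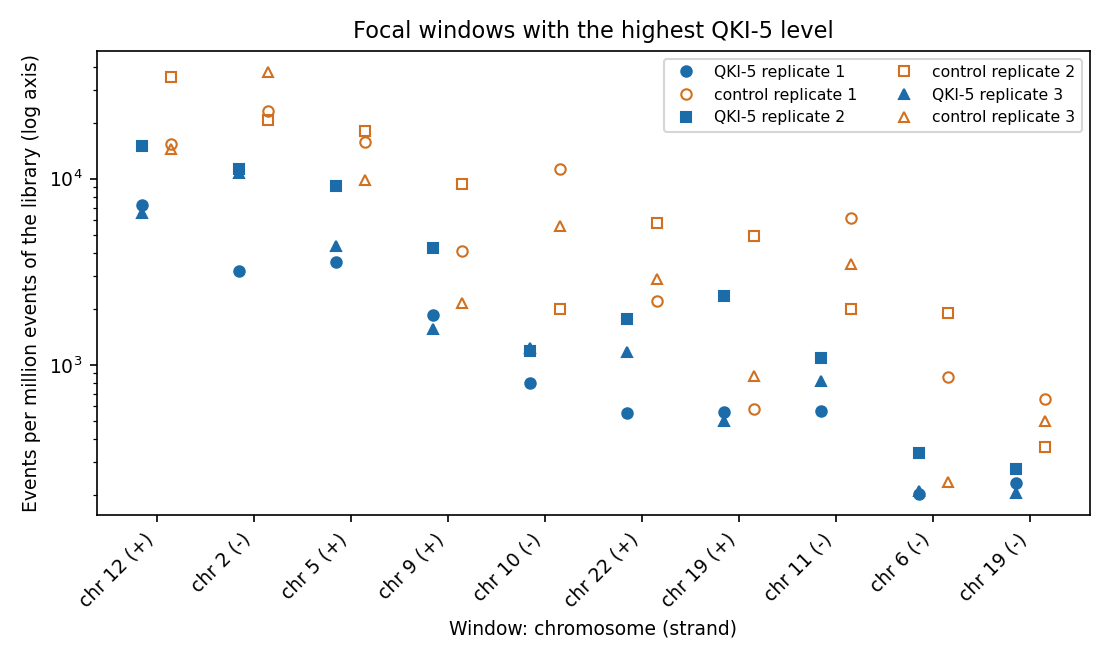
Level of the 10 focal windows ranked highest by geometric mean of QKI-5 EPM, on a log axis; filled symbols are QKI-5 and open symbols control libraries, with circles, squares and triangles for replicates 1, 2 and 3. The chromosome 10 window runs from 803 to 1230 EPM with the antibody and from 2001 to 11281 EPM without it.

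Several members were stacks at almost one nucleotide. The window chr11:134250001-134260000 (plus strand) held 543, 439 and 424 events in QKI-5 replicates 1, 2 and 3, all at 3 positions of one bin, and 1376 of the 1406 fell at 134250895. Controls 1, 2 and 3 held 71, 13 and 6 events, of which 89 of 90 were at that nucleotide. The window chr5:43920001-43930000 (plus strand) held 565 QKI-5 events at 2 positions, 564 of them at 43921031, where all 26 control events also lay. The other windows with all QKI-5 events in the bin were on chromosome 4 (plus strand, 178730001 to 178740000, 544 events at 4 positions) and chromosome 7 (plus strand, 48670001 to 48680000, 336 events at 16 positions). All of their 15 and 8 control events were in the bin too. Bins with 5 or fewer positions numbered 5 among the 94, and in 10 windows 1 position held at least 50% of the bin.

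Focal windows with many and with few control events had different surroundings. The 38 windows with at least 10 control events held a median of 99.6% of the QKI-5 events found in the window and both its neighbours on the same strand. The 56 windows with fewer held a median of 66.5%, and comparison windows 41.1%. Peak widths overlapped widely: the stretch with 80% of the bin's events had a median of 14.5 nt (1 to 38) and 19 nt (1 to 40). The stacking did differ in the median, 34.6 events per position against 8.11, in windows that also held a median of 1360 against 334 pooled events. Windows were split by control events after their values were seen, and the differences were not tested.

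QKI-5 levels were spread more widely between replicates in focal than in comparison windows, a difference that was not tested. The highest QKI-5 library exceeded the lowest by a median of 1.995 times in focal and 1.39 times in comparison windows. The ratio was above 5 in 6 of 94 focal and 16 of 14220 comparison windows, and QKI-5 replicate 2 was the highest library in all of these 6. The most uneven, named after its values were seen, was chr5:122990001-123000000 (plus strand), with 3.02, 75.6 and 12.8 EPM in antibody libraries 1, 2 and 3. QKI-5 replicate 2 was the highest library in 44 of the 94, replicate 1 in 30 and replicate 3 in 20. Which library was highest is not given for comparison windows, so nothing particular to focal windows is read from it. With replicate 1, the deepest library, left out of the rule, 50 windows were focal, of which 43 were among the 94.

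Levels with and without the antibody were compared on all windows with edgeR's quasi-likelihood test, relative to TMM-scaled library sizes and with Benjamini-Hochberg adjustment over 29960 windows. Of the 94 focal windows, all of which were tested, 6 were higher and 3 lower in QKI-5 libraries at an adjusted p under 0.05. Over all windows tested 0.754% were higher and 0.107% lower, and among comparison windows 1.09% and 0.0775%. The median log2 fold change of focal windows was 1.15, beside 0.98 in comparison windows and 0.78 over all windows tested. The minimum of 200 QKI-5 events favours a higher fold in focal and comparison windows. With library totals, the scale of EPM, these medians were 0.60 and 0.22, and the split became 0 higher and 10 lower. On that scale the 6 higher windows kept log2 fold changes of 2.12 to 3.45. None was called, at adjusted p of 0.0668 to 0.183 (edgeR). Their calls were thus lost when libraries were not scaled beyond their totals, while their direction was kept. With DESeq2 size factors in place of TMM, 5 of the 6 were still called in edgeR. With the replicate number as a block 0 of the 94 were called, at a smallest adjusted p of 0.441 (edgeR). Every QKI-5 library stood above every control in 20 of the 94, close to the 23.2% of comparison windows, and below every control in 8, against 3.17%.

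Fold changes are given by control count as a description. Among the 38 windows with at least 10 control events the log2 fold change was above 0 in 6, with a median of -0.61, and 1 was called higher and 3 lower. Among the 56 with fewer it was above 0 in 54, with a median of 2.06, and 5 were called higher and 0 lower. Control events are the denominator of the fold change, so the split by control count largely sets this division and nothing is read from it.

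Of the 6 higher windows, chr3:98550001-98560000 (minus strand) had the most events. It held 279, 243 and 154 EPM in antibody libraries 1, 2 and 3 and 58.0, 72.3 and 0 EPM in controls 1, 2 and 3. Every QKI-5 library was above every control (log2 fold change 2.70, SE 0.63, adjusted p = 0.0112 by edgeR). Its dominant bin from 98558601 to 98558650 took 1917 of 2996 QKI-5 events, at 67.6, 55.1 and 57.9% in replicates 1, 2 and 3, and none of the 11 control events, where a floor of 3 events allows a control share of up to 27.3% (95% exact upper limit 28.5%). The call was lost without QKI-5 replicate 1, at a log2 fold change of 1.94, with library totals, at 2.12 (adjusted p = 0.078 by edgeR), and with distinct positions in place of events, at 0.85 (adjusted p = 0.503).

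The other higher windows rested on 1 to 3 control events each, and their ratios are uncertain accordingly. The window chr2:10760001-10770000 (minus strand) held 105, 81.7 and 111 EPM in antibody libraries 1, 2 and 3 and 2 control events, both from control replicate 2 and both in the dominant bin (pooled ratio 10.7, 95% exact interval 2.95 to 88.2, log2 fold change 3.91, SE 0.91, adjusted p = 0.011 by edgeR). The window chr5:108310001-108320000 (plus strand) held 91.3, 55.1 and 106 EPM and 2 events of control replicate 1 (pooled ratio 9.25, 2.55 to 76.5), with 60, 29.7 and 46.1% of QKI-5 events in the bin. The window chr22:19950001-19960000 (plus strand) held 105, 47.1 and 125 EPM and 3 events of control replicate 3, which are 101 EPM there, so the groups overlapped (6.94, 2.37 to 33.7).

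The window chr15:60630001-60640000 (minus strand) held 72.1, 117 and 24.9 EPM in antibody libraries 1, 2 and 3, and 1 event each in controls 2 and 3, which are 24.1 and 33.6 EPM (pooled ratio 7.19, 1.99 to 59.5). QKI-5 replicate 3 lay below control replicate 3. The window chr1:16910001-16920000 (minus strand) held 66.0, 19.1 and 68.9 EPM and 1 event of control replicate 1 (pooled ratio 12.3, 2.19 to 484), with 91.0% of QKI-5 events in the bin. These 4 windows, those of chromosomes 5, 22, 15 and 1, had adjusted p of 0.0207, 0.0292, 0.0387 and 0.0486 (edgeR). The DESeq2 Wald test did not call those of chromosomes 15 and 1, at 0.142 and 0.0747, and DESeq2 size factors in edgeR lost that of chromosome 1, at 0.0622. Counting distinct positions over the whole window brought those of chromosomes 5, 22 and 15 to a log2 fold change of 2.55, 1.29 and 1.34, none called. Library totals ended all 4 calls and that of chromosome 2, which distinct positions also ended, at adjusted p of 0.0668 and 0.103 (edgeR). Without control replicate 2 all 4 lost their call, at adjusted p of 0.0952, 0.123, 0.0835 and 0.16. Those of chromosomes 22 and 15 also lost it without control replicate 1, at 0.0519 and 0.0624, that of chromosome 1 without control replicate 3, at 0.0694, and that of chromosome 22 without QKI-5 replicate 1 or 3, at 0.0879 and 0.112. A single control library gave every control event on chromosomes 2, 5, 22 and 1, and without that library the remaining controls are at 0, so no fold is given.

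The 3 lower windows had their control events mostly in 1 or 2 libraries. None of them was called by the DESeq2 Wald test, at adjusted p of 0.277, 0.4 and 0.138, or by edgeR without the filter on low counts, at 0.0541, 0.141 and 0.2, in the order below. The window chr3:73160001-73170000 (plus strand) held 27.3, 86.8 and 17.3 EPM in antibody libraries 1, 2 and 3 and 276, 772 and 33.6 EPM in controls 1, 2 and 3 (log2 fold change -2.38, SE 0.42, adjusted p = 1.16e-04 by edgeR). Control replicate 3, with 1 event, lay below QKI-5 replicate 2. The bin from 73160201 to 73160250 took 99.3% of QKI-5 and 71 of 71 control events, with the same top position. Without control replicate 2 the log2 fold change was -1.62 and the adjusted p 0.131.

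The window chr17:7470001-7480000 (plus strand) held 37.9, 70.5 and 35.3 EPM in antibody libraries 1, 2 and 3 and 268, 603 and 0 EPM in controls 1, 2 and 3 (log2 fold change -2.02, SE 0.43, adjusted p = 0.00402 by edgeR). It lost its call without control replicate 1 or 2, at -1.35 and -1.40. The window chr5:137890001-137900000 (minus strand) held 41.9, 54.6 and 24.9 EPM with the antibody and 305, 48.2 and 168 EPM without it (log2 fold change -1.85, SE 0.43, adjusted p = 0.0123 by edgeR). This call rested on control replicate 1: without it the log2 fold change was 0.24. In the bins of these windows lay 77.4 and 83.7% of their 62 and 49 control events, and on chromosome 5 the control's top position was 13 nt from the QKI-5 one.

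**Figure D3:**
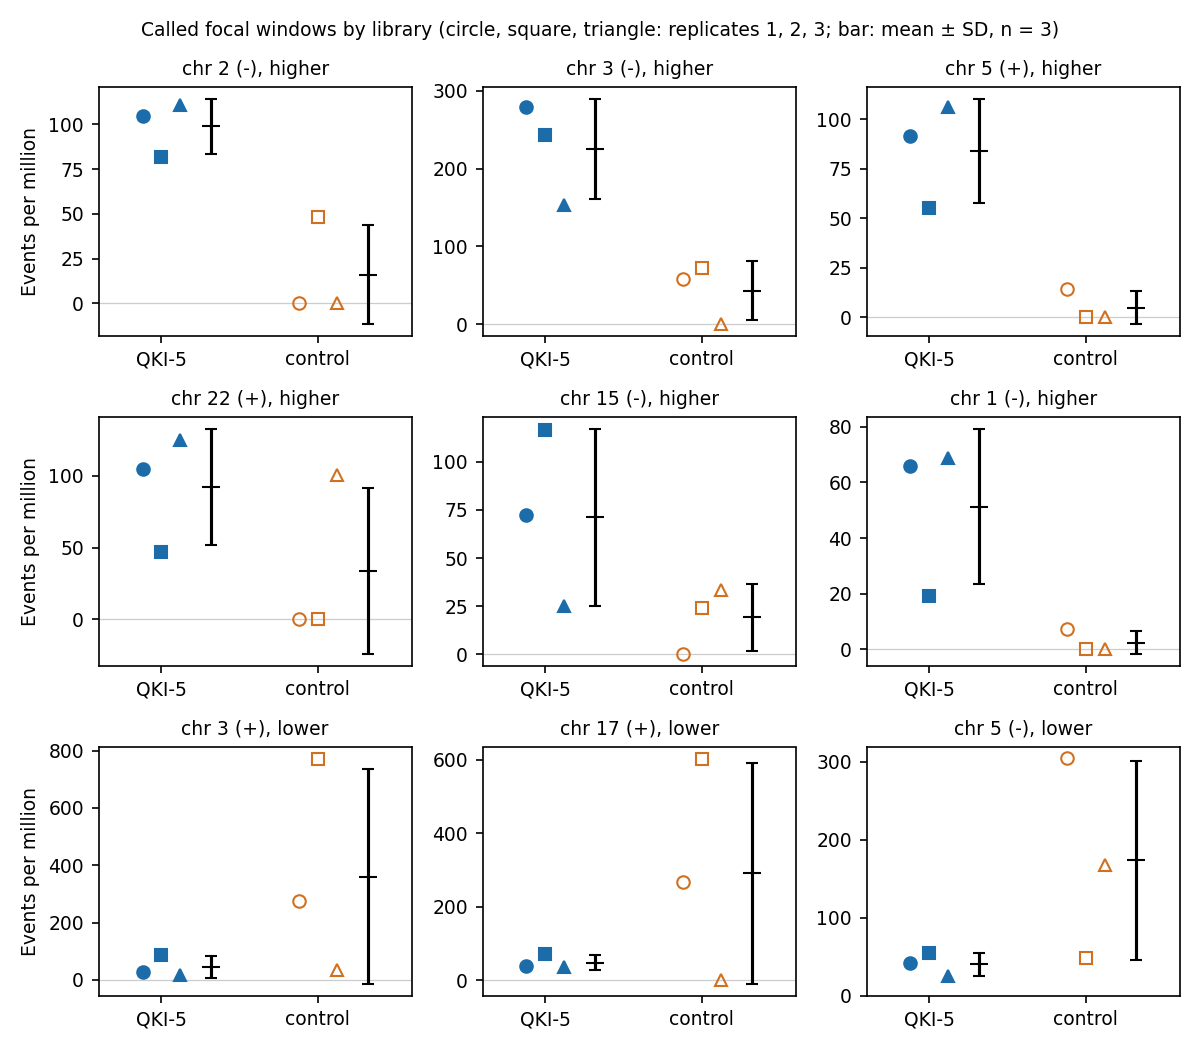
EPM of the 9 called focal windows in each library, with the mean ± SD (n = 3) to the right of each group; the chromosome 2, 5 (plus) and 22 windows are those from 10760001, 108310001 and 19950001. The 6 higher windows have controls at 0 EPM in 1 or 2 libraries, and in each of the 3 lower windows the lowest control lies below the highest QKI-5 library.

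In 4 of the 38 windows with at least 10 control events, under 20% of these lay in the dominant bin. The 4 are named after their values were seen. Besides the chromosome 3 window from 98550001, the clearest was chr1:980001-990000 (plus strand). It held 226, 170 and 88.6 EPM in antibody libraries 1, 2 and 3 and 123.3, 145 and 67.1 EPM in controls 1, 2 and 3, so the groups overlapped (log2 fold change 1.05, adjusted p = 0.252 by edgeR). Its dominant bin from 982551 to 982600 took 1355 of 2266 QKI-5 events but 0 of 25 control events, where a floor of 3 events allows a control share of up to 12% (95% exact upper limit 13.7%), and no control event lay within 50 nt of it. The QKI-5 share was itself uneven, 68.2, 32.1 and 44.9% in replicates 1, 2 and 3. The level of the whole window thus showed no difference past the threshold, while the bin chosen on QKI-5 events held no control event.

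The window chr19:46280001-46290000 (minus strand) had 57.4% of QKI-5 events and 2 of 18 control events in the bin (11.1%, 95% exact interval 1.38 to 34.7). The window chr12:120720001-120730000 (minus strand) had 50.98% and 3 of 17 (17.6%, 3.80 to 43.4), but 14 of those 17 control events lay within 50 nt of the bin. Counting the 50 nt on either side of the bin, 34 of the 38 windows had at least 50% of their control events at the peak, against 32 with the bin alone.

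**Figure D4:**
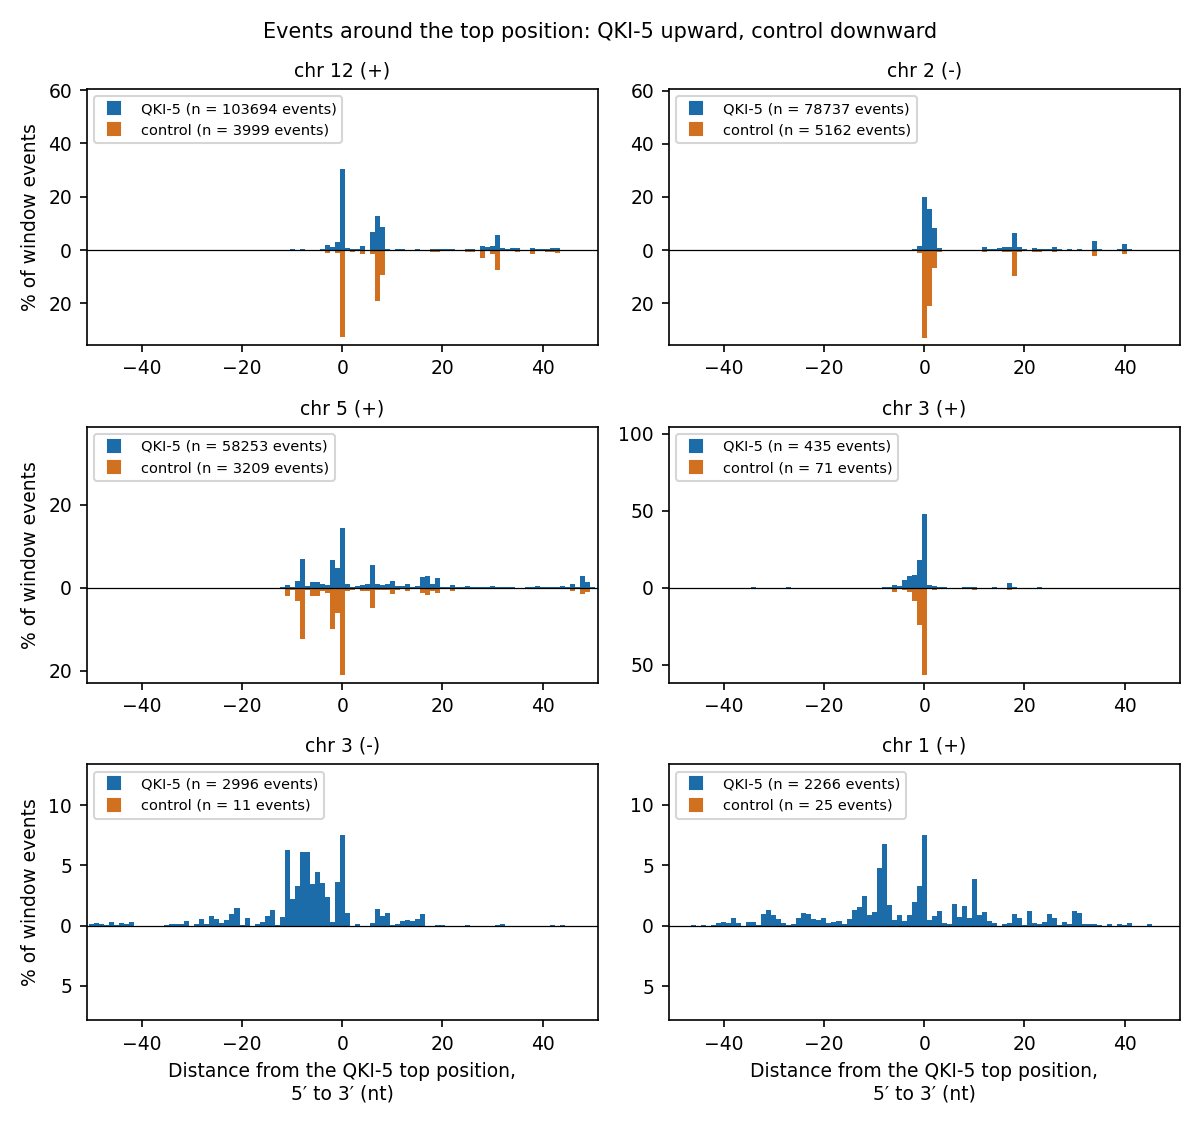
Percentage of the window's events at each nucleotide around the pooled QKI-5 top position, read 5′ to 3′, with QKI-5 upward and control downward, for the windows on chromosomes 12, 2 and 5 from 20700001, 133010001 and 71140001, the lower window on chromosome 3 (plus strand) and the windows on chromosomes 3 (minus strand) and 1 (plus strand) whose bins held no control event. The first 4 show control peaks at the QKI-5 top position, and the last 2 show a QKI-5 peak with none of the 11 and 25 control events in its bin.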

How the data were processed

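Each deposited file lists, for 1 library, single nucleotides of hg19 with the count of crosslink events on one strand. The authors' counts are not normalized. The tools cutadapt and Bowtie and the build hg19 come from the submitters' processing notes. Versions, the placing of reads with several alignments and the merging of PCR copies were not given in the sources used here. Coordinates count from 1.

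The members, lists and tests were chosen with earlier results of these data known. Events were summed over 10 kb windows and 50 nt bins that start at the window start. Windows were tested with edgeR 4.0.16 (R 4.3.3; limma 3.58.1) using glmQLFit and glmQLFTest, filterByExpr, TMM and the group as only term, checked on simulated counts. DESeq2 1.42.0 served as an alternative. Shares of library events in the windows were compared by an exact permutation test (scipy 1.17.1). Python 3.11.15, numpy 2.4.6, pandas 2.3.3 and matplotlib 3.10.9 were used. Named windows are the 10 with the highest geometric mean EPM over QKI-5 libraries, the 5 with the largest bin share, the 5 with the most control events, up to 6 called in each direction, and the 2 nearest the threshold on either side. Besides these, 4 windows are named after their values were seen: the one with the most uneven QKI-5 levels and 3 with few of their control events in the bin. The 3 member windows of chromosome 8 are counted and not named. Positions were not assigned to genes and no motif was searched, since no hg19 genome or annotation was used here. Alternatives were the scaling, filter, tool, bins, thresholds, distinct positions and each library left out. The held-out bins and the alternatives without the 4 fullest windows, with equal weight to windows, with no control minimum and with bins at any start were added after the data were seen.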

Additional observations from a re-analysis of the deposited data

How the results depend on the processing

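The number of focal windows was 94. It was 35 with 20 nt bins (32 shared with the 94), 154 with 100 nt bins, 188 at a share of 40%, 44 at 60%, 47 with at least 500 events, and 142 with the best 50 nt stretch at any start. Shifting the bins by 25 nt gave 84, of which 55 were shared. With distinct positions in place of events 1 window was left. A bin holds at most 50 positions per library. Pooled over the QKI-5 libraries, the 94 windows had a median of 30 positions in the bin and 80 outside it. Whether the minimum on the total or the share in the bin removed the other windows was not separated. Leaving out 1 QKI-5 library gave 50 to 92. The mean share of control events in the dominant bin was 75.1%, and 79.2% with 100 nt bins, 84.8% with shifted bins, 71.6% and 80.2% at shares of 40% and 60%, 63.8% with distinct positions, 82.8% without the 4 fullest windows, 56.2% when windows with a control event weighed equally, and 74.1 to 76.5% without 1 control library. The ratio of library shares stayed below 1 under each alternative run, from 0.149 (distinct positions, 1 window) to 0.452 (without QKI-5 replicate 1). Without 1 library it ran from 0.295 to 0.452.

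Of 6 higher and 3 lower focal windows, library totals left 0 higher and 10 lower, distinct positions 0 higher and 25 lower of 73 tested, no filter on low counts 6 higher and 0 lower, and the DESeq2 Wald test 4 higher and 0 lower. Without 1 library in turn, higher calls ranged from 1 to 6 and lower calls from 1 to 18, and without a QKI-5 library 37 or 38 members were tested. Shares called over all windows are not given for these alternatives, so nothing particular to focal windows is read from the counts. Only the chromosome 5 window from 137890001 turned its direction among the 9 called windows, to 0.24 without control replicate 1, in a range of -2.82 to 0.24 over the libraries left out. With the replicate number as a block 0 were higher and 0 lower in edgeR, at a smallest adjusted p of 0.441 with 14 members at an unadjusted p under 0.05. Deviations of same-numbered libraries from their group means were correlated for numbers 1, 2 and 3. The values were -0.0031, 0.102 and 0.0749 over all windows tested, and 0.0033, 0.455 and 0.345 over the 94. Over the 94, control replicate 2 and QKI-5 replicate 3 correlated at -0.424, and control replicate 3 and QKI-5 replicate 2 at -0.387. In both sets QKI-5 replicates 2 and 3 correlated best with their own number and replicate 1 with control replicate 3. The main test did not take the numbers as pairs, and these values do not settle whether they are. Control depth limits these comparisons, since 41 of the 94 windows held 3 or fewer control events.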
